A study of Homo sapiens with 6 samples.

Results

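Genes of the siRNA and microRNA machinery were measured in HCT116 cells, a human colorectal cancer cell line. They were DROSHA, DGCR8, XPO5, DICER1, TARBP2, AGO1, AGO2, AGO3, TNRC6A and TNRC6B, chosen by name from a list of pathway members. No value of a member set the choice, but it was made with earlier results of these data known. All 10 members were found among the 19871 gene symbols of the deposited mRNA tables, where they hold 61 of 92866 transcripts. The experiment had 3 groups, and each group had 2 libraries. Cells of the GAS5 group were transfected with a plasmid for the lncRNA GAS5, and cells of the siYAP group with siRNA against YAP, the transcriptional co-activator of the Hippo pathway. The remaining group was NC, and what its cells were transfected with is not given in the sources used here. All 3 groups were HCT116 cells in the same medium with serum, and the labels list GAS5 beside NC and siYAP under siRNA. The siYAP cells therefore carried an siRNA that uses some of the proteins measured here, and an effect of any siRNA cannot be told apart from an effect of lower YAP, because the content of NC is not stated.

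Both siRNAs and microRNAs are short guide RNAs that act through Argonaute proteins. A microRNA precursor is cut from its primary transcript in the nucleus by the Microprocessor, the pair of DROSHA and DGCR8. It is carried to the cytoplasm by exportin-5, cut again by DICER1 with its partner TARBP2, and loaded into an Argonaute. TNRC6 proteins bind the Argonaute and recruit the complexes that shorten the poly(A) tail. A transfected siRNA enters this route after the DICER1 step. Small RNAs themselves were not measured in these libraries.

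Some of these mRNAs are read by the pathway they serve. The DICER1 mRNA is a known microRNA target, with let-7 sites in its coding region and sites of the miR-103a and miR-107 family in its 3′ UTR. These sites are shown because the deposited transcripts of DICER1 differ in whether they hold them. The mature microRNAs follow as RNA from RefSeq, with the seed (bases 2 to 8) in capitals. miR-103a-3p and miR-107 share 1 seed and let-7a-5p has another.
let-7a-5p: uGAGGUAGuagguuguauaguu
miR-103a-3p: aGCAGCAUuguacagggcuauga
miR-107: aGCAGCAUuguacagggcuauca

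The letters CTACCTC pair with the let-7 seed, and ATGCTGC with the seed that miR-103a-3p and miR-107 share. Both were searched on the sense strand of the GENCODE 29 transcripts (GRCh38), and matches of the pair can share at most 1 base. DICER1 lies on the minus strand of chromosome 14 from 95086228 to 95158010. Its transcript ENST00000343455 has 4 let-7 seed matches, all of them in coding exons. Each line gives 29 bases with the match in capitals, and the coordinates are those of the match.
let-7 match in coding sequence, chr14:95107889-95107895: catactgtgttCTACCTCttaatgttgtt
let-7 match in coding sequence, chr14:95103749-95103755: cgtgcaaccaaCTACCTCatattccattc
let-7 match in coding sequence, chr14:95103641-95103647: tgctaacaaatCTACCTCagatggaagtc
let-7 match in coding sequence, chr14:95094107-95094113: gcgattttggaCTACCTCataaccaagca

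The same transcript has 5 miR-107 seed matches in its 3′ UTR and 1 in its coding sequence. The 5 matches in the 3′ UTR lie in the last exon, between 1034 and 4162 bases after the stop codon.
miR-107 match in the 3′ UTR, chr14:95089458-95089464: acacctaaaatATGCTGCagattttataa
miR-107 match in the 3′ UTR, chr14:95088857-95088863: tgcttcgtggaATGCTGCatttatatgta
miR-107 match in the 3′ UTR, chr14:95087653-95087659: cagtcctaactATGCTGCgttttataata
miR-107 match in the 3′ UTR, chr14:95086382-95086388: tttaccatcacATGCTGCagctgtttttt
miR-107 match in the 3′ UTR, chr14:95086330-95086336: atacagtaatcATGCTGCagaaatttgca

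At least 1 CTACCTC was found in 37.0% of the 527 human coding sequences that are as long as that of DICER1, read over their first 5766 bases. ATGCTGC was found in 27.1% of the 1818 genes with a 3′ UTR as long as that of DICER1, read over the first 4270 bases. A match is a description of the letters, and binding was not measured.

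DGCR8 carries microRNA hairpins in its own exons, which the Microprocessor is known to cut. These microRNAs are shown because they lie inside the mRNA whose level is reported below. miR-3618 lies in a 5′ UTR exon on the plus strand of chromosome 22, from 20085797 to 20085818, and is in 3 of the 4 listed DGCR8 transcripts with these exons. miR-1306-5p (20086072 to 20086093) and miR-1306-3p (20086112 to 20086129) lie in the coding sequence of all 4. Seeds are in capitals, and no seed is shared.
miR-3618: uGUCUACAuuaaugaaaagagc
miR-1306-5p: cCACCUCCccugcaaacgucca
miR-1306-3p: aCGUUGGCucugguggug

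Values below are group means computed by the authors. No spread between libraries can be given, no test could be run, and no p-value is printed. Gene values are counts summed over the transcripts of a symbol. Log2 fold changes were taken after TMM scaling of each treatment mean to the NC mean, with a prior count of 2. The 95% intervals beside them are exact, rest on the reads behind the means and cover counting error only. For single transcripts and sums of transcripts by length they rest on rounded estimated counts. Those intervals leave out the error of sharing reads among transcripts and are too narrow. Levels are compared between genes only as FPKM, which is per length. Depth was 27206123 (NC), 25521577 (GAS5) and 26298036 (siYAP) counts per library on average. YAP1 had mean counts of 3480 (NC), 2679 (GAS5) and 1444 (siYAP), which is -0.26 (GAS5) and -1.18 (siYAP) on the log2 scale. Of 8 colon epithelium markers, 6 reached 50 mean counts, and the 8 had a summed FPKM of 3279 to 4329, while KRT20 and VIL1 stayed under 50 mean counts. All markers of leukocytes (4), endothelium (3) and hepatocytes (2) and 3 of 4 fibroblast markers were also under 50 mean counts, with summed FPKM of at most 0.81, 0.23, 0.82 and 3.40. COL1A1 was the fibroblast marker above that level.

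As FPKM, the machinery was expressed at moderate level in all groups. DROSHA (30.3), AGO2 (27.7) and XPO5 (25.03) were highest in NC, and the other 7 lay between 9.38 and 14.2. AGO2 was highest in both treatments. In GAS5 it was at 30.24, above DROSHA (26.6) and XPO5 (26.2), and in siYAP at 37.1, above XPO5 (24.0) and DROSHA (23.8). DGCR8 was the lowest of the 10 in every group, at 9.38 (NC), 9.27 (GAS5) and 6.35 (siYAP). In NC, DGCR8, TARBP2 and DICER1 (9.48) lay within 0.1 FPKM of each other, so their order there carries no weight. The plot of levels by gene and group shows these sums.

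**Figure D1:**
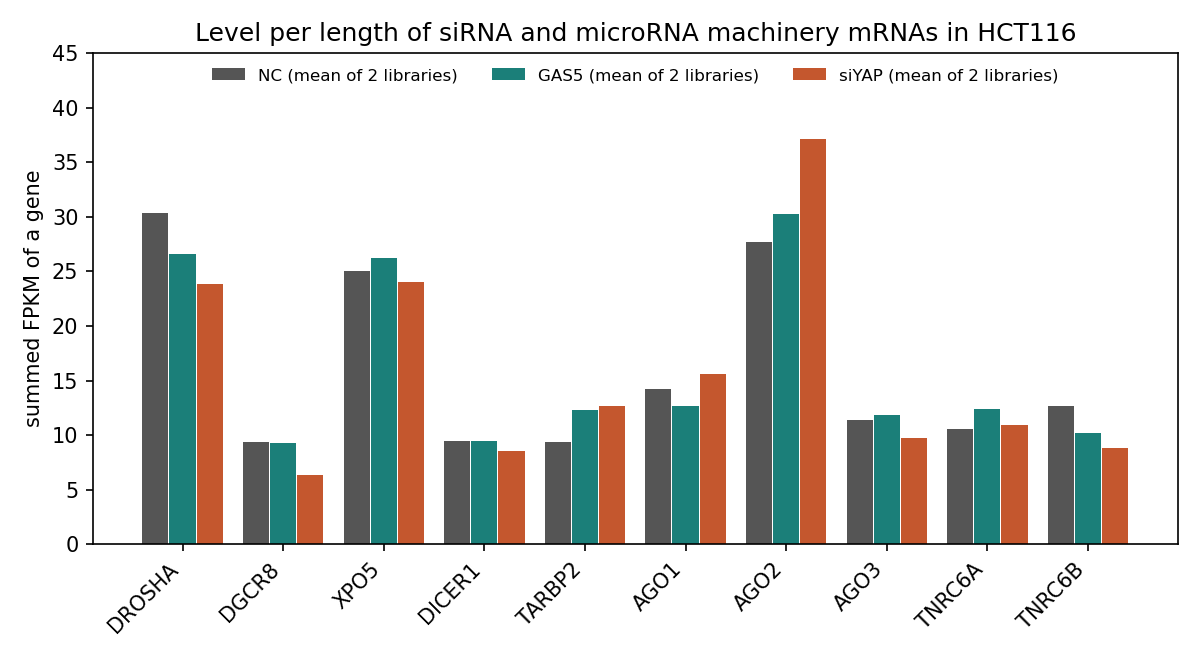
FPKM summed over the transcripts of each gene, on the y axis, for the 10 machinery genes on the x axis. Bars are the authors' group means for NC, GAS5 and siYAP, with no error because each group has 1 value. AGO2 is highest in siYAP at 37.1, and DGCR8 is lowest there at 6.35.

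No member changed by 2-fold in either comparison (0 of 10 in each). Over all genes kept by the low-count filter, 3.11% of 13382 passed 2-fold in GAS5 and 2.27% of 13315 in siYAP. The members' median log2 fold change was -0.00 in GAS5 and -0.03 in siYAP, and the median of all genes was 0.00 in both. In each comparison, 5 members lay above 0 and 5 below. At a smaller size of 0.5 on the log2 scale, 0 of 10 members passed in GAS5, where 11.6% of all genes passed and 4.03% of the 7992 genes within the members' range of NC counts. In siYAP 3 of 10 passed, where 14.8% of all genes and 8.87% of the genes in that range passed. They were DGCR8, TNRC6B and AGO2, and TARBP2 lay just under the line at 0.49, with AGO2 just on it at 0.50. These counts depend on the transcripts summed. With Ensembl transcripts alone, 2 of 10 members passed 0.5 in GAS5, AGO3 (-0.86) and TNRC6A (0.59). In siYAP 4 of 10 did, AGO2 (0.64), AGO3 (-0.90), DGCR8 (-0.53) and TARBP2 (0.66), while TNRC6B (-0.44) did not. The NC values are the same in both comparisons, so a deviating NC value would shift a gene in both comparisons. The plot of fold changes sets the comparisons side by side.

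**Figure D2:**
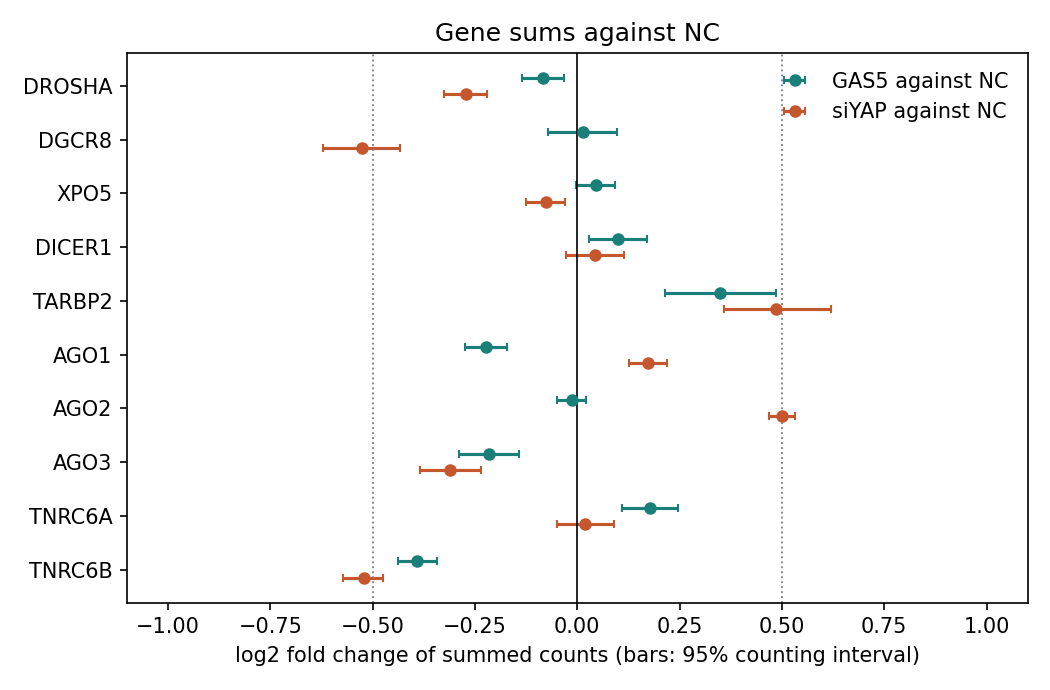
Log2 fold change of summed counts against NC on the x axis for each machinery gene on the y axis, with GAS5 and siYAP as separate points. Bars are 95% intervals for counting error only, and dotted lines mark 0.5 in either direction. In siYAP, DGCR8 (-0.53) and TNRC6B (-0.52) lie lowest and AGO2 (0.50) and TARBP2 (0.49) highest.

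Both genes of the Microprocessor had lower counts in siYAP, where 49.96% of genes kept lay below 0 after scaling. Of genes kept, 7.18% lay as low there as DGCR8 or lower, and 20.6% as low as DROSHA or lower. DGCR8, the RNA-binding partner, had mean counts of 1172.5 (NC), 1090 (GAS5) and 767 (siYAP). After scaling, the GAS5 value was level with NC (log2 fold change 0.01, interval -0.07 to 0.10), and the siYAP value lay 30.6% below it (-0.53, -0.62 to -0.43). One transcript, ENST00000351989, held 97.0% of the DGCR8 counts in NC, so little of this value depends on how reads were shared among transcripts. It holds all 3 microRNAs printed above. It had mean counts of 1136.9 (NC), 1027.6 (GAS5) and 728.9 (siYAP). In bulk RNA a lower value can come from fewer expressing cells or from less RNA per cell, and these cannot be told apart.

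DROSHA, the nuclease, had mean counts of 3280.5 (NC), 2853 (GAS5) and 2559 (siYAP). The difference from NC on the log2 scale was -0.08 in GAS5 (-0.13 to -0.03) and -0.27 in siYAP (-0.33 to -0.22), or -0.22 and -0.39 with Ensembl transcripts alone. It lies on the minus strand of chromosome 5, from 31400497 to 31532196, and its main transcript ENST00000513349 held 76.1% of the NC counts. XPO5, the exporter, had mean counts of 3723 (NC), 3538 (GAS5) and 3327.5 (siYAP), with log2 fold changes of 0.05 (-0.00 to 0.09) and -0.08 (-0.12 to -0.03). Among the 10 members XPO5 and DICER1 stayed within 0.1 of NC on the log2 scale in both comparisons. XPO5 overlaps POLR1C on the opposite strand over 40090 bases (chromosome 6, 43522330 to 43576075). AGO3 overlaps AL138787.2 on the opposite strand over 21522 bases. TNRC6A overlaps AC008731.1 (16289 bases) and LINC01567 (9641 bases) in the same way, and opposite-strand overlaps of the other members were shorter. The libraries kept strand, but whether the counting used it is not given in the sources used here.

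DICER1, which cuts the exported hairpin, had mean counts of 1630.5 (NC), 1609 (GAS5) and 1583 (siYAP). The difference from NC on the log2 scale was 0.10 in GAS5 (0.03 to 0.17) and 0.04 in siYAP (-0.03 to 0.11). The deposited DICER1 transcripts fall mainly into a short class of 5621 to 6179 bases and a long class of 10220 to 10331 bases. All transcripts of both classes hold the 4 let-7 matches printed above, and the long class alone holds the 5 miR-107 matches in the 3′ UTR. The short class has 3′ UTRs of 122 and 177 bases, and the long class of 4269 and 4270.

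The short class held 57.8% (NC), 60.7% (GAS5) and 57.8% (siYAP) of DICER1 counts. The long class held 39.7%, 36.5% and 40.6%. More of the reads assigned to DICER1 thus went to transcripts without the 3′ UTR matches in every group, although the long class has more bases for reads to fall on. Scaled to NC, the short class was 0.17 higher on the log2 scale in GAS5 (0.08 to 0.26) and 0.04 in siYAP (-0.05 to 0.13). The long class had -0.02 (-0.14 to 0.09) and 0.07 (-0.04 to 0.19). The balance of the classes therefore moved by less than 4 percentage points. Single transcripts moved more. ENST00000526495, of the long class, had mean counts of 21.7 (NC), 113.1 (GAS5) and 126.0 (siYAP). ENST00000393063, of the same class, had 147.0, 98.4 and 49.5, and ENST00000343455 had 479.0, 376.0 and 466.8. The lengths of these 3 are nearly the same, and their sum stayed close to NC.

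TARBP2, the double-stranded RNA binding partner of DICER1, had the fewest counts of the 10 and is a short gene on the plus strand of chromosome 12 (53500921 to 53506431). It had mean counts of 417 (NC), 489.5 (GAS5) and 551.5 (siYAP), and so was higher in both treatments. The log2 fold change was 0.35 in GAS5 (0.22 to 0.48) and 0.49 in siYAP (0.36 to 0.62), or 0.66 in siYAP with Ensembl transcripts alone. In GAS5 this was the highest value of any member, and 11.6% of genes kept lay as high or higher. Its most abundant transcript in NC, ENST00000266987 (33.5% of the gene), had mean counts of 139.8 (NC), 126.1 (GAS5) and 226.6 (siYAP). The next, ENST00000394357, had 137.4, 190.8 and 193.9. On the log2 scale ENST00000394357 was higher than NC in both treatments (0.57 and 0.60), while ENST00000266987 was higher in siYAP alone (-0.04 and 0.80).

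The Argonautes differed in direction. AGO2, the Argonaute that cuts the target of an siRNA, had mean counts of 6916 (NC), 6310 (GAS5) and 9221 (siYAP). In GAS5 it was level with NC (-0.01, -0.05 to 0.02), 0.13 above it as a ratio of FPKM and -0.18 from it with Ensembl transcripts alone. In siYAP it lay 41.4% above NC (log2 fold change 0.50, 0.47 to 0.53), and 6.86% of genes kept lay as high or higher. The value was 0.42 as a ratio of FPKM and 0.64 with Ensembl transcripts alone. AGO1 had mean counts of 3617.5 (NC), 2855 (GAS5) and 3842.5 (siYAP), a log2 fold change of -0.22 (-0.27 to -0.17) and 0.17 (0.13 to 0.22). AGO3 was lower in both treatments, with 1698, 1347.5 and 1291 mean counts and log2 fold changes of -0.22 (-0.29 to -0.14) and -0.31 (-0.39 to -0.24). The AGO3 value in GAS5 was 0.05 as a ratio of FPKM and -0.86 with Ensembl transcripts alone, and that in siYAP was -0.90 with the latter. AGO4, the remaining human Argonaute and not one of the 10, had 481, 337.5 and 413 mean counts. Its log2 fold changes were -0.39 (-0.54 to -0.25) and -0.13 (-0.27 to 0.00). With Ensembl transcripts alone AGO4 had -4.65 and -2.49.

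AGO4, AGO1 and AGO3 are neighbours on the plus strand of chromosome 1, with 11917 and 189 bases between the annotated ends (AGO1 from 35869808 to 35930528, AGO3 from 35930718 to 36072500). AGO2 lies apart from them on chromosome 8. In GAS5 the 3 neighbours had values of -0.39, -0.22 and -0.22, all below 0. In siYAP they were -0.13, 0.17 and -0.31, so AGO1 lay above NC while the genes on both sides of it lay below. The AGO4 interval in siYAP (-0.27 to 0.00) reached 0, and AGO3 in GAS5 was 0.05 as a ratio of FPKM. Taken directly, GAS5 over siYAP, the log2 ratio was -0.51 for AGO2, -0.39 for AGO1 and 0.54 for DGCR8. The other 7 members lay between -0.14 and 0.19 in that ratio.

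The TNRC6 genes encode the GW182 proteins, which link an Argonaute to deadenylation. TNRC6A lies on chromosome 16 (24610209 to 24827632) and TNRC6B on chromosome 22 (40044817 to 40335808), both on the plus strand. TNRC6B had mean counts of 4271 (NC), 3000 (GAS5) and 2803 (siYAP), and was the lowest member in GAS5 by log2 fold change (-0.39, -0.44 to -0.34). In siYAP it lay 30.4% below NC (-0.52, -0.57 to -0.47). TNRC6A had 1681, 1751.5 and 1606.5 mean counts, with log2 fold changes of 0.18 (0.11 to 0.25) and 0.02 (-0.05 to 0.09), or 0.59 and 0.32 with Ensembl transcripts alone. TNRC6C, not one of the 10, had 1193, 1042.5 and 1192 mean counts (-0.08 and 0.08). Of the 3 paralogs, TNRC6B was thus the one with both values past -0.3. The TNRC6B value in GAS5 depends on the transcripts summed. With Ensembl transcripts alone, and the assembled TCONS_00094857 left out, it was 0.23, above NC, and the siYAP value was -0.44.

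The plot of all genes against their counts places the members. The more deeply counted members have narrow counting intervals, and their fold changes lie inside the cloud of other genes.

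**Figure D3:**
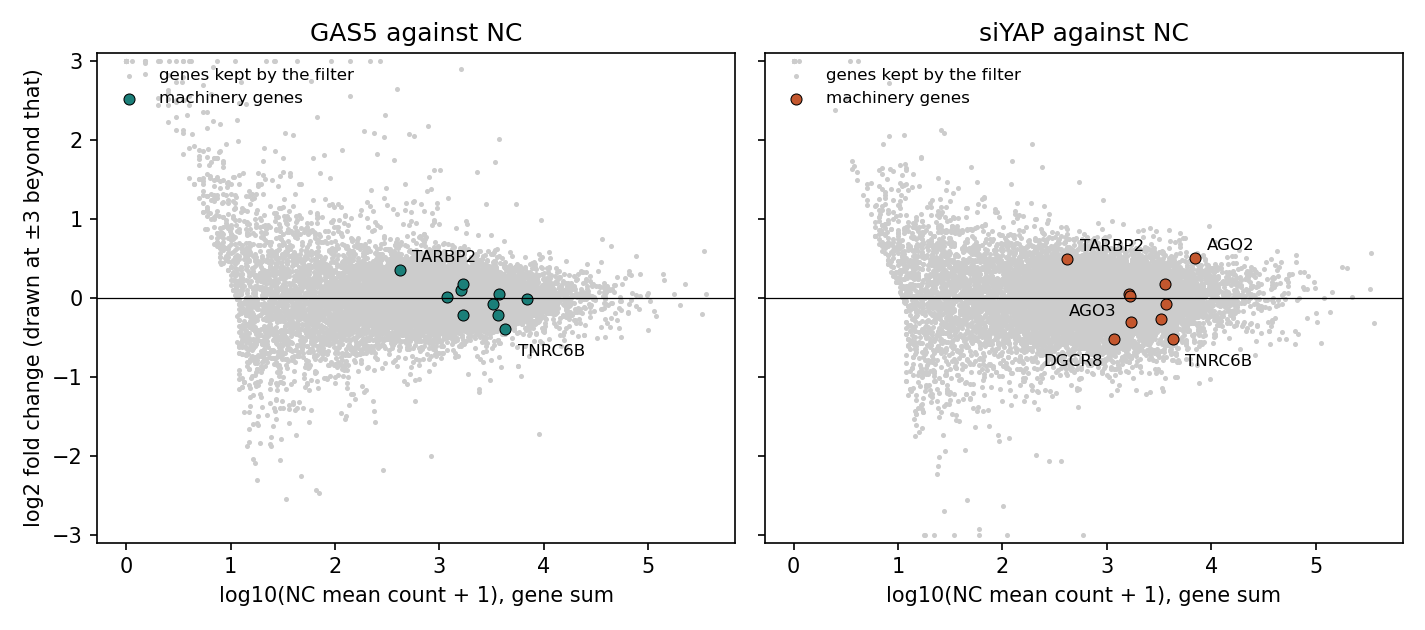
Log2 fold change against NC on the y axis, over log10 of the NC mean count plus 1 on the x axis, for gene sums kept by the low-count filter (grey) and the 10 machinery genes (coloured). Left, GAS5, and right, siYAP. Members with a value past 0.3 in size are named, and none reaches 1 in either direction.

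Single transcripts of the members gave another picture from the gene sums. Of the 61 listed transcripts, 49 have Ensembl identifiers, 12 were assembled from the reads and 8 were at 0 in all groups. In GAS5 44 could be scaled, and 15 of them (34.1%) changed at least 2-fold, 9 higher and 6 lower. Of all transcripts 20.4% did, 10.8% higher and 9.59% lower. In siYAP 15 of 43 (34.9%) did, 8 higher and 7 lower, and of all transcripts 21.1% did, 9.51% higher and 11.6% lower. Of these, 5 in GAS5 and 4 in siYAP were listed at 0 in 1 group, and 7 and 6 had at least 100 scaled counts in 1 group. For these subsets no share over all transcripts was computed. Doubled, so as to give the sum of 2 libraries, the members' gene sums were whole numbers within 0.05 in 30 of 30 values, while 17 of 145 values above 0 of their single transcripts were. Counts of single transcripts are thus mostly estimates.

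The transcripts that moved at least 4-fold at 100 or more counts were 4, in AGO2, AGO3, TNRC6A and DICER1. How many of all transcripts pass this rule was not computed, so the 4 are described one by one. The DICER1 transcript is ENST00000526495, described above, with a log2 fold change of 2.38 in GAS5 (2.03 to 3.01) and 2.54 in siYAP (2.19 to 3.17). The AGO2 transcript TCONS_00138860 had mean counts of 345.2 (NC) and 9.16 (siYAP) and was listed at 0 in GAS5. The AGO3 transcript ENST00000373191 had mean counts of 482.7 (NC), 0.08 (GAS5) and 70.7 (siYAP). The TNRC6A transcript TCONS_00050044 had 256.2 mean counts in NC and was listed at 0 in both treatments. Each of these 4 genes also has another transcript of nearly the same length that was present in every group.

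Transcripts of a gene were therefore also summed by length, joining those within a ratio of 1.1 of the next. Lengths of assembled transcripts were read from the ratio of count to FPKM. For the long AGO3 class (19672 to 19687 bases) the mean counts were 1164.5 (NC), 827.2 (GAS5) and 845.7 (siYAP), a log2 fold change of -0.37 (-0.47 to -0.28) and -0.38 (-0.47 to -0.29). The long AGO2 class (14346 to 14896 bases) had 5801.5, 4952.9 and 7857.0 mean counts (-0.11 and 0.52). Its short class, ENST00000519980 of 3141 bases, had 1110.8, 1353.1 and 1359.1 (0.40 and 0.38). As listed, AGO2 in GAS5 joined a slightly lower long class to a higher short one, and the split of reads between these classes is an estimate.

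The TNRC6A class of 8303 to 8589 bases had 608.7, 543.3 and 415.1 mean counts (-0.05 and -0.47), while its classes of 5611 to 5672 and of 3700 bases lay between 0.20 and 0.37 above NC on the log2 scale in both treatments. As listed, the near-zero TNRC6A sum in siYAP joined a lower longest class to higher shorter ones. The longest class includes TCONS_00050044, which was listed at 0 in both treatments. The split of reads between classes is an estimate, and how far it bears on these values was not tested. The longest class held 36.2% (NC), 31.0% (GAS5) and 25.8% (siYAP) of TNRC6A counts. For TNRC6B the class of 17933 to 18279 bases had 3597.8, 2477.7 and 2368.3 mean counts (-0.42 and -0.52). Within it, TCONS_00094857 had 2224.4, 777.6 and 1377.1 and ENST00000335727 had 1158.2, 1430.1 and 851.3. The 4741 base class of TNRC6B was lower too (-0.36 and -0.77). Of the 20 classes with at least 100 mean counts in NC, 0 changed by 2-fold in either comparison, and the farthest were the 1124 base class of DROSHA in GAS5 (-0.70, -0.96 to -0.46) and the 4741 base class of TNRC6B in siYAP (-0.77, -0.91 to -0.65). The plot by transcript and by length shows the difference for 4 genes.

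**Figure D4:**
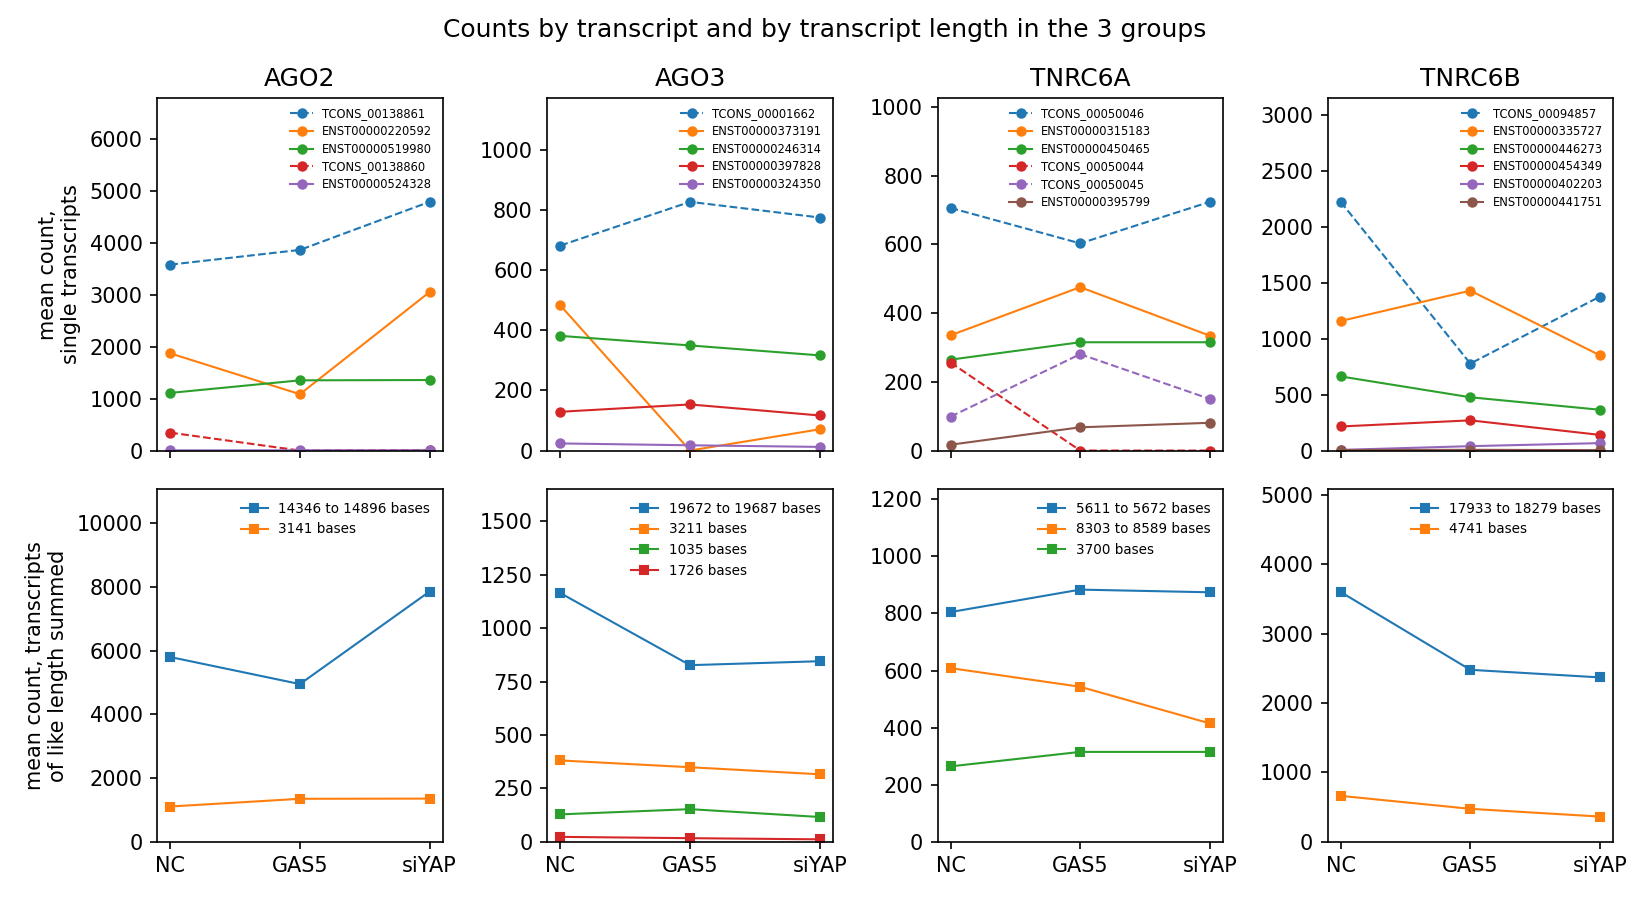
Mean count, not scaled between groups, on the y axis in NC, GAS5 and siYAP on the x axis for AGO2, AGO3, TNRC6A and TNRC6B. Upper panels show up to 6 single transcripts (dashed for assembled ones) and lower panels show transcripts of like length summed, for sums of at least 10 in NC. In the lower panels no line of at least 100 counts reaches a 2-fold difference from NC.

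Several members have very long 3′ UTRs, and this was not used to choose them. The longest annotated 3′ UTR had a median of 3345 bases in the members and 1102 bases over 19128 genes, and 8 of 10 members lay above the latter. AGO1 (10921 bases), AGO2 (11888), AGO3 (16755) and TNRC6B (12567) were each as long as under 1% of genes. A CTACCTC match was in the longest 3′ UTR of 4 members and an ATGCTGC match in that of 5. At these lengths such matches are common. Among 3′ UTRs as long as that of AGO2, 43.3% hold CTACCTC and 56.7% hold ATGCTGC in as many bases, and the AGO2 3′ UTR has 2 and 5. The longest annotated 3′ UTR of TARBP2, with 450 bases, has 1 CTACCTC, which 2.68% of 3′ UTRs hold in as many bases, but its transcript ENST00000550407 was at 0 in all 3 groups.

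YAP acts on DNA through TEAD factors, whose usual motif contains GGAATG. These letters were searched on both strands in RefSeq promoters (GRCh38), from 250 bases before to 50 after an annotated start. Of the 10 members, 9 (all but AGO2, which was not searched) matched the table, with 15 promoters in all, and 2 of these held GGAATG, while 14.0% of all 35116 promoters did. The matches, in capitals, began at position -180 from 1 start of TARBP2 and at -92 from 1 start of DICER1. Both matched windows lie inside the annotated gene bounds, TARBP2 at 53501336 to 53501635 and DICER1 at 95133454 to 95133753. The other searched windows of both genes held no match. In siYAP TARBP2 and DICER1 had 0.49 and 0.04 on the log2 scale, and a link to the motif was not tested.
TARBP2 promoter match: ggacggaggagGGAATGagtgaagagga
DICER1 promoter match: aatggctcataGGAATGatattctgatg

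The wider pathway was read from 5 lists with 78 genes, of which 75 could be scaled in each comparison. None of the 75 changed by 2-fold in either comparison, where 3.11% and 2.27% of all genes did. With Ensembl transcripts alone AGO4 (lower) and CNOT6 (higher) did in GAS5 and AGO4 (lower) in siYAP, and without the low-count filter TRIM71, which had 0.5 mean counts in NC, did in GAS5. At a size of 0.5 on the log2 scale, 1 of the 75 passed upward and 0 downward in GAS5, where 11.6% of all genes passed. In siYAP 1 passed upward and 4 downward, where 14.8% of all genes passed. Within the members' range of NC counts, 4.03% of genes passed in GAS5 and 8.87% in siYAP. No such share was computed for the range of counts of these lists. Of all genes kept, 6727 of 13382 lay above 0 in GAS5 and 6663 of 13315 in siYAP. Of the 13 nuclear processing and export partners, 11 lay above 0 in GAS5 (median 0.10) and 5 in siYAP (median -0.10). Of 15 genes for RISC loading and Argonaute binding, 7 lay above 0 in GAS5 (median -0.06) and 3 in siYAP (median -0.18). HSPA8, the constitutive HSP70 chaperone that helps load Argonautes, passed 0.5 in both comparisons and in opposite directions. It had mean counts of 36543.5 (NC), 56192 (GAS5) and 23023 (siYAP) (0.74, 0.73 to 0.75, and -0.58, -0.60 to -0.56).

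Of 22 deadenylation and decapping genes, 10 lay above 0 in GAS5 (median -0.01) and 4 in siYAP (median -0.10). DCP1A, a decapping cofactor, was the single one past 0.5, with 2203, 2308 and 1413 mean counts (0.19 and -0.55). Of 10 genes for microRNA tailing and turnover, 8 could be scaled, and none passed 0.5 (medians -0.00 and -0.13). Among 17 of 18 protein-coding genes that host microRNAs, 6 lay above 0 in GAS5 and 10 in siYAP (medians -0.06 and 0.06). SMC4, host of the miR-15b and miR-16-2 hairpins, had 3616, 3190.5 and 2333.5 mean counts (-0.06 and -0.55). EGFL7, host of miR-126, had 1792.5, 1691 and 2452 (0.03 and 0.54). C9orf3, host of miR-23b, miR-27b and miR-24-1, had 113.5, 91.4 and 70.7 (-0.19 and -0.58). Over all 5 lists 51 of 75 genes (68.0%) lay below 0 in siYAP, where 49.96% of all genes did. In GAS5 37 of 75 lay below 0, where 49.73% of all genes did. Under other processing of the same 75, the siYAP count ran from 45 (Ensembl transcripts alone) to 56 (ratio of FPKM). The GAS5 count ran from 37 to 44 (total count scaling). No share below 0 was computed for genes of like counts.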

How the data were processed

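The 6 lncRNA-sequencing libraries of HCT116 cells (2 each of NC, GAS5 and siYAP) were strand-specific, and TopHat2 2.1.1 is named in the submitters' processing notes. The genome build, annotation and counting tool are not given in the sources used here, and whether libraries came from separate cultures is not stated. The deposited expected counts are estimated counts per transcript that the authors averaged over the libraries of a group. The deposited FPKM values were averaged by the authors in the same way, with 0 set to 0.001. The tables also hold the authors' fold changes, p-values and FDR, which were not used. NC values are identical in both tables.

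Transcripts were joined by identifier and summed by the symbol in the siYAP table, since 212 symbols differ between the tables. The 339 transcripts without a symbol (0.224% of counts) were left out of gene sums. Counts were rounded for scaling. TMM scaling and filterByExpr (minimum count 10) came from edgeR 4.0.16 in R 4.3.3, with a prior count of 2 for log2 fold changes, and size factors of DESeq2 1.42.0 served as another scaling. Other steps used Python 3.11.15 with pandas 2.3.3, numpy 2.4.6, scipy 1.17.1 and matplotlib 3.10.9. The scaling and log2 fold changes of gene sums were checked on simulated counts with known changes. Transcript values, length classes, intervals and sequence searches were not part of that check. The planned tests need libraries, so none was run. Exact (Clopper-Pearson) 95% intervals rest on the reads behind the means of 2 libraries. For single transcripts and length classes they rest on estimated counts rounded to whole numbers.

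Depth was 25521577 to 27206123 mean counts per group. A fold of 2, or 0.5 on the log2 scale, marked a change, and neither is a test. The members and lists were chosen with earlier results of these data known. Named were all 10 members, the most abundant transcript of each in NC where its counts bear on the gene sum, transcripts changed 4-fold with at least 100 scaled counts, listed genes with 50 or more NC counts and a log2 change of 0.5 in size, AGO4 and TNRC6C. Other transcripts, and the classes of transcript length, were chosen after their values were seen. Sites and coordinates are from GENCODE 29 (GRCh38), and microRNAs and promoters from RefSeq on GRCh38.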

Additional observations from a re-analysis of the deposited data

How the results depend on the processing

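The log2 median of the members in siYAP moved from -0.03 to -0.10 as a ratio of FPKM, with a pseudocount of 0.1, and the cause was not tested. With at least 10 mean counts in both groups, 6 member transcripts in GAS5 and 7 in siYAP changed by 2-fold, in place of 15 in each, since transcripts at or near 0 drop out. With transcripts of like length summed, 4 and 5 classes did, and these had few counts. The share over all transcripts was not computed under either rule, so these counts cannot be set against other genes. The count of members past 2-fold was 0 in both comparisons under all 6 alternatives. With Ensembl transcripts alone, 2 members passed 0.5 in GAS5, in place of 0, and 4 in siYAP, in place of 3. With total count scaling and with FPKM 2 passed in siYAP, and AGO2 lay under the line. Of 50 values set against the reported medians and counts, 44 stayed within the limit set for them. That limit let a count of 3 become 2 or 4, and the 2-fold count of members, 0 throughout, is among the 50. Of the fold changes of single members under the alternatives, 98 stayed within their limit and 22 moved. Among single members, the sign turned as a ratio of FPKM for AGO2 (0.13), AGO3 (0.05), DGCR8 (-0.02) and DICER1 (-0.00) in GAS5 and for DICER1 (-0.14) in siYAP. Total count scaling turned DGCR8 in GAS5 (-0.01) and TNRC6A in siYAP (-0.02). Ensembl transcripts alone turned TNRC6B in GAS5 (0.23). That alternative for single members and their counts, the sums by length and the count at 0.5 were chosen after the data were seen. No paired analysis was possible because no deposited value belongs to a single library. Leaving out each replicate, the replicate block, and the edgeR and DESeq2 tests were not run for lack of libraries. Depth was ample for the gene sums, and the unknown spread between libraries limits every comparison.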

Other observations

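Gene sums of the mean counts, taken over 2 libraries, were whole numbers within 0.05 for 89.3% (NC), 89.0% (GAS5) and 89.6% (siYAP) of genes above 0. The length implied by count and FPKM was 1.02 times the annotated length (median of 72 values for member transcripts, range 1.00 to 1.05).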
